A study of Caenorhabditis elegans with 2 samples.

Results

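Aminoacyl-tRNA synthetases are the enzymes that join each amino acid to its transfer RNA. Their genes were taken as the protein-coding genes of Caenorhabditis elegans whose symbol is a letter followed by ars- or rs- and a number, such as aars-1 and kars-1, in the Ensembl annotation of WBcel235. The rule gave 32 of 19973 protein-coding genes, and used no measured value. RefSeq products named a tRNA ligase or synthetase for 30 of them, and for dars-2 and nars-2 a domain of class II synthetases. There were 20 genes numbered 1, 11 numbered 2 and 1 numbered 3 (fars-3). The rule leaves out synthetase genes with other symbols, such as glp-4.

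The data are peak lists from chromatin immunoprecipitation and sequencing (ChIP-seq), which maps where a protein lies on the genome. The protein was the product of C34F6.9 tagged with eGFP, in second-stage (L2) larvae of strain OP324, which carries the mutation unc-119(ed3) and the transgene wgIs324. Both replicates came from whole animals of pooled sex, so no tissue can be told from another, and they form 1 group with no untagged or untreated group to compare. The tagged protein is made from a transgene, and how its level compares with that of the untagged gene was not examined.

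The synthetases fall into 2 classes with unrelated catalytic folds. Class I joins the amino acid to the tRNA through a fold shared with other nucleotide-binding enzymes, and class II through an antiparallel sheet of its own. Cytosol and mitochondria each need charged tRNAs, and animals supply the enzymes either from separate nuclear genes or from a single gene whose product goes to both places. Many worm genes lie in operons, where an upstream promoter serves several genes in a row and the later transcripts receive a spliced leader.

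None of the 4 motifs searched was found at the summits of all synthetase peaks. The windows below reach 50 bp to either side of the optimal summit, on the strand of the gene, 5′ to 3′, and stop at the first annotated exon. They are shown because they belong to 6 of the 8 highest-ranked synthetase peaks; the windows of nars-1 and cars-1 are not printed. Sequence is from the RefSeq copy of WBcel235, the same assembly as ce11. Capitals mark 4 motifs searched on either strand, which were the 6-mer ACGCAG, next the 6-mer GAGACG, then the repeat GAGAGA, and last the shorter motif GCGC.
kars-1, chrII:7072709-7072809, minus strand: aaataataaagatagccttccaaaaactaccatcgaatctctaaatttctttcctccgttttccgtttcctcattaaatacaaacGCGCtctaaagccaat
mars-1, chrIV:11635776-11635876, minus strand: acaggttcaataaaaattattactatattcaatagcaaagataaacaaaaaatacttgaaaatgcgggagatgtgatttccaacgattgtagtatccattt
aars-1, chrII:11464621-11464721, minus strand: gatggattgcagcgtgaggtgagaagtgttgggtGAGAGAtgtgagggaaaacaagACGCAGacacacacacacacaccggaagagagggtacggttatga
ears-2, chrIV:390469-390557, minus strand: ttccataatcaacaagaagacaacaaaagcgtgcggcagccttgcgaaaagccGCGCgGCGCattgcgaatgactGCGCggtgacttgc
vars-1, chrV:8031321-8031410, plus strand: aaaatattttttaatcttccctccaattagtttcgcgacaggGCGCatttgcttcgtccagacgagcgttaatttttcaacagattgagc
sars-2, chrIV:4357461-4357561, plus strand: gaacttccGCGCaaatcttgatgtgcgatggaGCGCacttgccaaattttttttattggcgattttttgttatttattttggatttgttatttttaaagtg

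The first 3 motifs are 6-mers that were more frequent at the summits of the other optimal peaks than 300 bp to either side. ACGCAG was in 16.81% of those centres and 1.88% of the flanks, the highest ratio of any 6-mer found in at least 200 centres. GCGC, the core of several further 6-mers among the 20 highest ratios, was added after the synthetase windows had been seen. The motif ACGCAG can share 3 bases with the motif GAGACG, and GCGC reads the same on both strands.

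Within 50 bp of the summit, 3 of the 17 synthetase peaks held ACGCAG (aars-1, cars-1 and dars-1), against 16.8% of all 5692 optimal peaks. GAGACG was in 0 of the 17, against 19.0% of all optimal peaks, and GAGAGA in 2 of the 17 (aars-1 and hars-1), against 31.2%. GCGC was in 8 of the 17 (aars-2, dars-1, ears-2, kars-1, sars-2, tars-1, vars-1 and yars-2), against 34.5% of all optimal peaks. In windows of the same 101 bp centred 150 bp upstream of each coding gene, ACGCAG was found in 3.1%, GAGACG in 3.75%, GAGAGA in 8.42% and GCGC in 12.42%. The 34 flanking windows of the 17 peaks held ACGCAG 0 times, GAGACG 0 times, GAGAGA 3 times and GCGC 2 times. The mars-1 window, at the second-highest of these peaks, held none of the 4. At least 1 of the 3 6-mers was in 4 of the 17 windows, against 44.9% of all optimal peaks, and at least 1 of the 4 motifs in 11 of the 17, against 65.7%. A match is a description of these letters and not a site.

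Peaks lay at the start of about every other synthetase gene. A gene was counted as having a peak where a summit of the optimal list, the authors' set of peaks passing an irreproducible discovery rate (IDR) threshold, fell no more than 500 bp from a 5′ end of its protein-coding transcripts. This was so for 17 of the 32 synthetase genes (53.1%), against 17.0% of all protein-coding genes and 17.5% of those on the autosomes, where all 32 lie. No test is attached to this count, since genes are not replicates. The synthetase genes had a mean of 1.94 annotated 5′ ends against 1.47 for all coding genes, and more ends give more chances of a peak. Of the 15 synthetase genes with a single 5′ end, 9 had a peak (60.0%), against 13.7% of all coding genes with a single end. Of the 17 with more ends, 8 had a peak (47.1%), against 26.2% of all such coding genes.

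Among genes with a peak, those of the synthetases were mostly of middle or low rank within the list. Peaks were ranked by the authors' signal, which has no scale shared between lists, so only ranks within a list are compared. The median rank of the nearest optimal peak was 3249 of 5692 for the 17 synthetase genes and 2089.5 for all 3400 coding genes with a peak. Among the 2846 highest peaks of the list lay 6 of the 17 (35.3%), against 64.1% of all coding genes with a peak. Over all genes the direction was the other way: 6 of the 32 synthetase genes had one of the 2846 highest peaks near a 5′ end, against 11.1% of all coding genes. Over the 22 synthetase genes with any region of the pooled list, which includes background, the median rank was 3894, against 8660 for all 7368 such coding genes. These 22 include the 17, and the optimal list is the top of the pooled list. This median is therefore not independent of the count of genes with a peak. Each of the 17 had exactly 1 optimal summit in its window.

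Among class II genes, 11 of 17 had a peak (64.7%, against 17.0% of all coding genes). The highest was at kars-1, which charges lysine tRNA. Its summit at chrII:7072759 lay 344 bp upstream of the 5′ end and ranked 261 in the optimal list, 293 in replicate 1 and 206 in replicate 2. The replicate summits lay 0 and 1 bp from it, and no other coding 5′ end was within 500 bp. The peak was therefore near the top of every list, in sequence that only kars-1 borders within that distance.

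The next class II peaks were at nars-1 and aars-1, for asparagine and alanine. The nars-1 summit (chrI:7090377, 315 bp upstream) ranked 1108 in the optimal list, 1105 in replicate 1 and 1193 in replicate 2. It lay between nars-1 and the divergent nduf-6, whose 5′ end was 363 bp away. The aars-1 summit (chrII:11464671, 174 bp upstream) ranked 1358, 1791 and 762 in the same lists, between aars-1 and the divergent rga-1, at 223 bp. Both sat in shared upstream regions, with the synthetase the nearer gene at the optimal summit. The order was reversed for nars-1 in replicate 2, whose summit lay 32 bp closer to nduf-6. It was also reversed for aars-1 in replicate 1, whose summit lay 56 bp closer to rga-1.

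The serine pair differed between the replicates. The sars-2 summit (chrIV:4357511, 125 bp upstream) ranked 2940 in the optimal list, 1783 in replicate 1 and 10606 in replicate 2. The sars-1 summit (chrIV:10003545, 181 bp upstream) ranked 4714, 3909 and 10582, and lay nearer to the divergent gene C47E12.2 (43 bp) than to sars-1. In replicate 2 neither was among the 5692 highest peaks. The same held for fars-3, the beta subunit of the phenylalanine enzyme, whose summit (chrII:8464723, 125 bp upstream) ranked 3536, 2194 and 7615.

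The other class II peaks were lower or at less usual places. The tars-1 summit for threonine (chrII:11694636) ranked 3249 in the optimal list, 3011 in replicate 1 and 4138 in replicate 2. It lay in introns of both tars-1 and kel-1, whose spans overlap there. The nearest 5′ ends were internal ones, 343 bp away for tars-1 and 192 bp away for kel-1, with the summit upstream of each. This peak is therefore not at the outermost start of tars-1. The aars-2 summit (chrI:3982930, 253 bp upstream) ranked 3686, 3979 and 4395, and that of pars-2 for proline (chrI:12486871, 73 bp upstream) ranked 3820, 3415 and 5678. Of these 3 peaks, that of tars-1 was the highest in each list.

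The hars-1 summit for histidine (chrIV:10858866, 91 bp upstream) ranked 3968 in the optimal list, 4093 in replicate 1 and 3576 in replicate 2, with the divergent T11G6.2 at 370 bp. The dars-1 summit for aspartate (chrIII:9491317, 102 bp upstream) ranked 5457, 5587 and 5985, and lay nearer to the divergent ctr-9 (79 bp). In replicate 2 the summit was instead nearer to dars-1 (71 bp) than to ctr-9. The dars-1 peak was near the end of the optimal list, whose last signal was 57.31 against 59.75 at dars-1.

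Among class I genes, 6 of 15 had a peak (40.0%, against 17.0% of all coding genes), led by mars-1, which charges methionine tRNA. Its summit (chrIV:11635826, 339 bp upstream) ranked 405 in the optimal list, 405 in replicate 1 and 417 in replicate 2, with no other coding 5′ end within 500 bp. The ears-2 summit for glutamate (chrIV:390507) ranked 1450, 1063 and 2654. It lay in the 91 bp between ears-2 (39 bp) and the divergent uncp-18 (53 bp), so it cannot be given to either gene by distance alone.

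The vars-1 summit for valine (chrV:8031371, 40 bp upstream) ranked 1989 in the optimal list, 1466 in replicate 1 and 3405 in replicate 2. The cars-1 summit for cysteine (chrI:2628356) ranked 2894, 2902 and 3112 and lay 221 bp downstream of the outermost 5′ end, in an exon. It also lay upstream of an internal 5′ end of cars-1, and the replicate 2 summit lay 207 bp upstream of that end. The lars-1 summit for leucine (chrIII:4187074, 273 bp upstream) ranked 4028, 3767 and 4202. The last was yars-2 for tyrosine (chrIV:4712605, 19 bp downstream), at rank 5669 of 5692, with ranks of 5996 and 5385 in the replicates. Its replicate summits lay 93 and 74 bp from the optimal one, and were 74 and 55 bp upstream of the 5′ end. The division into classes was made after the values had been seen, and the shares of class I and class II were not tested against each other.

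**Figure D1:**
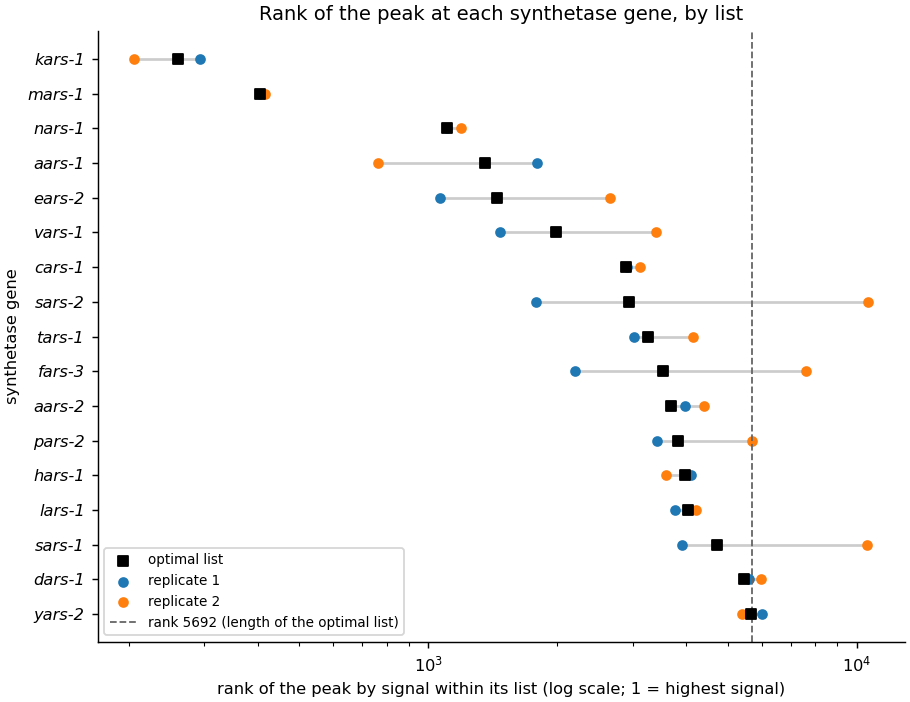
Rank by signal (log scale, 1 is the highest) of the peak at each of the 17 synthetase genes in the optimal list (black squares) and of the region matched within 100 bp in replicate 1 (blue) and replicate 2 (orange); the dashed line marks rank 5692. The kars-1 and mars-1 peaks are highest in all 3 lists, and sars-1, sars-2, fars-3 and dars-1 lie left of the line in replicate 1 and right of it in replicate 2.

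All 17 peaks had a region within 100 bp in the full lists of 30000 regions of both replicates. These lists include background regions, and the optimal list was made from the same libraries, so this match is not independent. Among the 5692 highest of replicate 1 were 16 of the 17, among those of replicate 2 were 13, and among both were 12. The 5 that were not in both were dars-1, fars-3, sars-1, sars-2 and yars-2. The same counts were not made over all optimal peaks, so whether they are usual for peaks of these ranks was not tested. Taking the 5692 highest peaks of a replicate alone gave a peak to 17 synthetase genes in replicate 1, with gars-1 in and yars-2 out, against 17.1% of all coding genes. Replicate 2 gave 13, with dars-1, fars-3, sars-1 and sars-2 out, against 16.7% of all coding genes. Apart from gars-1, which had no optimal peak, the genes that differed between the lists had optimal ranks of 2940 or lower down the list, and kars-1 and mars-1 were the top synthetase peaks in both replicates.

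The summits lay mostly upstream, as at other coding genes. Upstream summits made up 15 of the 17. The median position was -125 bp and the quartiles were -273 and -73 bp. Over all coding genes with a peak, 90.5% were upstream, at a median of -168 bp. In all, 14 of the 17 summits were intergenic, those of cars-1 and yars-2 were in exons and that of tars-1 was in an intron. By the optimal summits, the member's own 5′ end was the nearest coding one for 14 of the 17, the exceptions being dars-1, sars-1 and tars-1. Another coding 5′ end lay within 500 bp of the summit for 7 of them. The counts of intergenic summits and of further coding ends were not made over all coding genes with a peak. Just inside the 500 bp limit were kars-1 and tars-1, at 344 and 343 bp, and just outside it were iars-1 for isoleucine, with a summit 540 bp upstream at rank 2719, and gars-1 for glycine, with one 623 bp downstream at rank 2412. A limit of 1000 bp would take in both, with fars-1 and rars-1, for 21 of 32 against 21.6% of all coding genes, and a limit of 250 bp would leave 11 of 32 against 11.7%. The iars-1 summit was 271 bp upstream of the divergent pges-2.

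**Figure D2:**
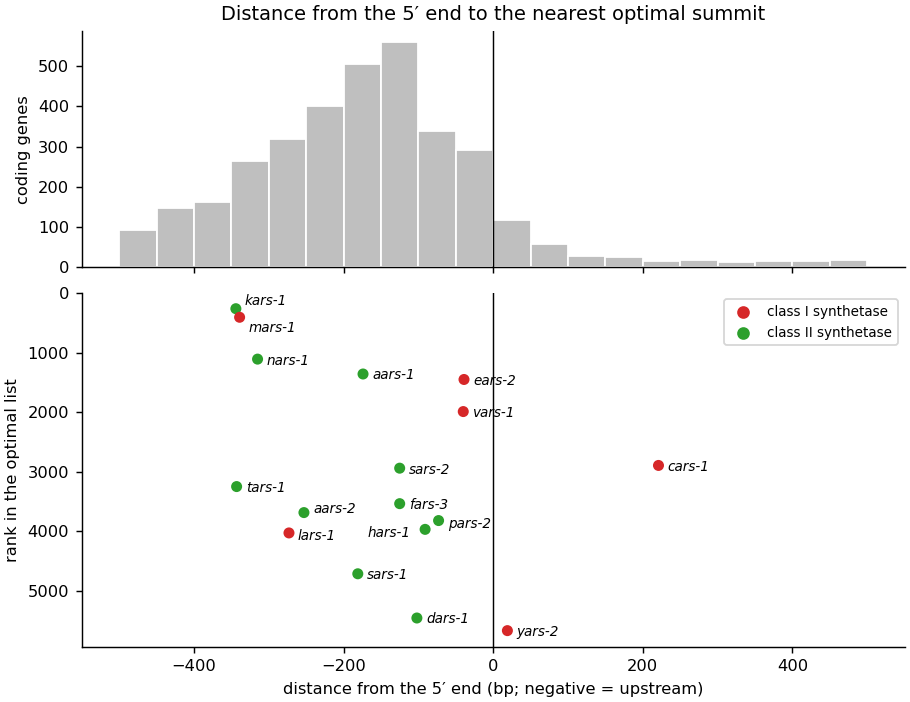
Top, number of coding genes by the distance in bp from the 5′ end to the nearest optimal summit, in bins of 50 bp; bottom, the same distance for the 17 synthetase genes against the rank of the peak, coloured by class. Of the 17 points 15 lie upstream, and the highest-ranked, kars-1 and mars-1, lie over 300 bp from the 5′ end.

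Genes numbered 1 and genes numbered 2 both included some with a peak and some without. Of the 20 genes numbered 1, 11 had a peak (55.0%, median rank 2894). Of the 11 numbered 2, 5 had one (45.5%, median rank 3686). Among all coding genes 17.0% had a peak, at a median rank of 2089.5. Under the symbol rule, 11 amino acids had genes of both numbers. In 2 of these pairs both had a peak (aars and sars), in 3 only the gene numbered 1 (dars, lars and nars), in 3 only the gene numbered 2 (ears, pars and yars) and in 3 neither (fars, iars and rars). In the aars pair the gene numbered 1 had the higher rank (1358 against 3686) and in the sars pair the gene numbered 2 (2940 against 4714). The pair of mars-1 and mars-2 (Y105E8A.20 in Ensembl), with peaks at ranks 405 and 1753, falls outside this rule and these counts. No test was made between the numbers.

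The numbers also do not map simply onto compartments. RefSeq products named a compartment for 14 of the 32 genes, and gave aars-1 as mitochondrial and aars-2 as cytoplasmic, the reverse of pars, rars and ears, where the gene numbered 2 is the mitochondrial one. By these names 7 of 10 cytoplasmic and 3 of 4 mitochondrial genes had a peak, against 17.0% of all coding genes. The cytoplasmic ones without a peak were iars-1, rars-1 and wars-1, the gene for tryptophan, and the mitochondrial one was rars-2. Of the 18 genes whose product named no compartment, 7 had a peak (38.9%). These groups are small and depend on which products name a compartment, and their shares were not tested against each other. Other genes with a synthetase product but another symbol were glp-4 (valine) and mars-2 (Y105E8A.20 in Ensembl, mitochondrial methionine), which had peaks at ranks 2073 and 1753, and K03B4.1 and prx-10, which had none.

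Peaks were found at a larger share of head-to-head synthetase genes than of those in close tandem, a difference that was not tested. Each coding gene was placed by its nearest upstream coding neighbour. It was head-to-head where that neighbour is on the opposite strand, at any gap. It was close tandem where the neighbour is on the same strand with a gap of at most 500 bp, and far tandem beyond that. Head-to-head genes therefore include some with wide gaps, such as cars-1 (4409 bp, with a peak) and pars-1 (4824 bp, without one). Of 18 head-to-head synthetase genes, 13 had a peak (72.2%), against 24.5% of all head-to-head coding genes. Of 11 in close tandem, 3 had a peak (27.3%), against 12.4% of all such coding genes, and these were fars-3, vars-1 and yars-2. Of 3 in far tandem, 1 had a peak (pars-2), against 10.1% of all such genes. Among all coding genes the head-to-head share was also the highest of the 3, and the size of the difference was not compared with that of the synthetase genes by a test. This division was chosen after the values had been seen.

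**Figure D3:**
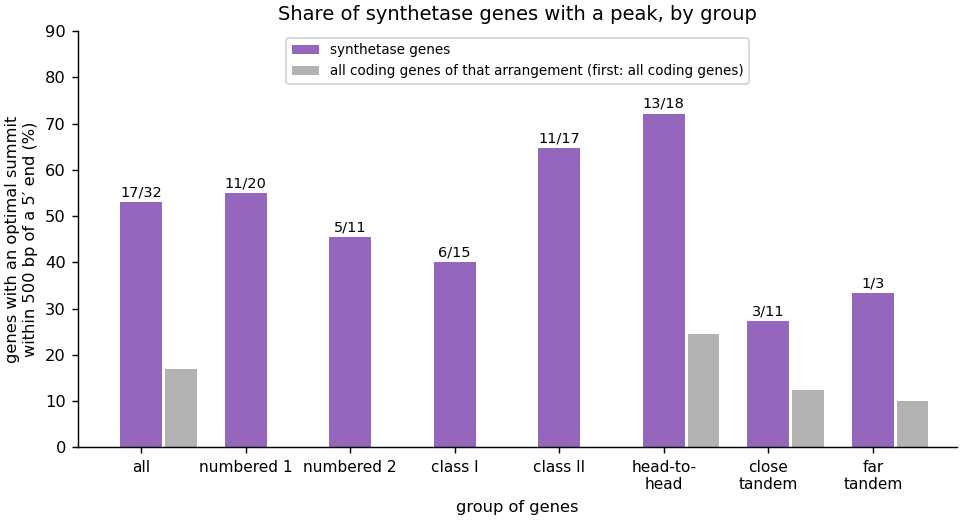
Share of genes (%) with a peak as defined above, for the synthetase genes (purple, with the count of genes above each bar) and, where shown, for all coding genes of the same arrangement (grey; for the first bar, all coding genes). The head-to-head group stands at 13 of 18 and the close tandem group at 3 of 11, each above its grey bar.

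Most synthetase genes in close tandem without a peak of their own lay in a run with a peak at an earlier gene. There were 8 such genes: dars-2, gars-1, iars-2, lars-2, nars-2, rars-1, rars-2 and yars-1. Following the run of close tandem genes upstream, 6 of the 8 reached a gene with an optimal peak, against 36.8% of the 3414 coding genes in close tandem without a peak. The exceptions were gars-1 and iars-2. An optimal summit at rank 262 (chrI:10178421) did lie 1815 bp upstream of iars-2, with no coding 5′ end within 500 bp of it. For dars-2 and nars-2 the gene with the peak was not the one directly before them. The first gene of the run had a peak for 5 of the 8, against 32.5% of the same 3414 coding genes. The runs rest on the division by arrangement above, which was chosen after the values had been seen. The files hold no operon annotation, so whether these runs are operons was not tested.

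Among these 6, lars-2 lay 99 bp after ZK524.4, whose peak (chrI:7466724, 295 bp upstream of ZK524.4) ranked 865. The arginine gene rars-1 lay 65 bp after rpb-8, a gene for a subunit of RNA polymerases, whose peak (chrIII:4918168, 160 bp upstream of rpb-8) ranked 2128. The mitochondrial rars-2 lay 120 bp after C29H12.2, whose peak (chrII:6123664, 145 bp upstream) ranked 4064. In these 3 cases the gap to the preceding gene was between 65 and 120 bp, and the peak lay before that gene.

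The gene yars-1, numbered 1 for tyrosine, lay 109 bp after mars-2, so that 2 synthetase genes follow each other, and the mars-2 peak (chrI:14496575, 15 bp upstream) ranked 1753. The other runs led to F10C2.4, whose peak at rank 1930 lay 7458 bp upstream of dars-2, and to Y66D12A.21, whose peak at rank 4500 lay 4666 bp upstream of nars-2. At that distance the peaks were also near other genes, kup-1 and spe-6.

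**Figure D4:**
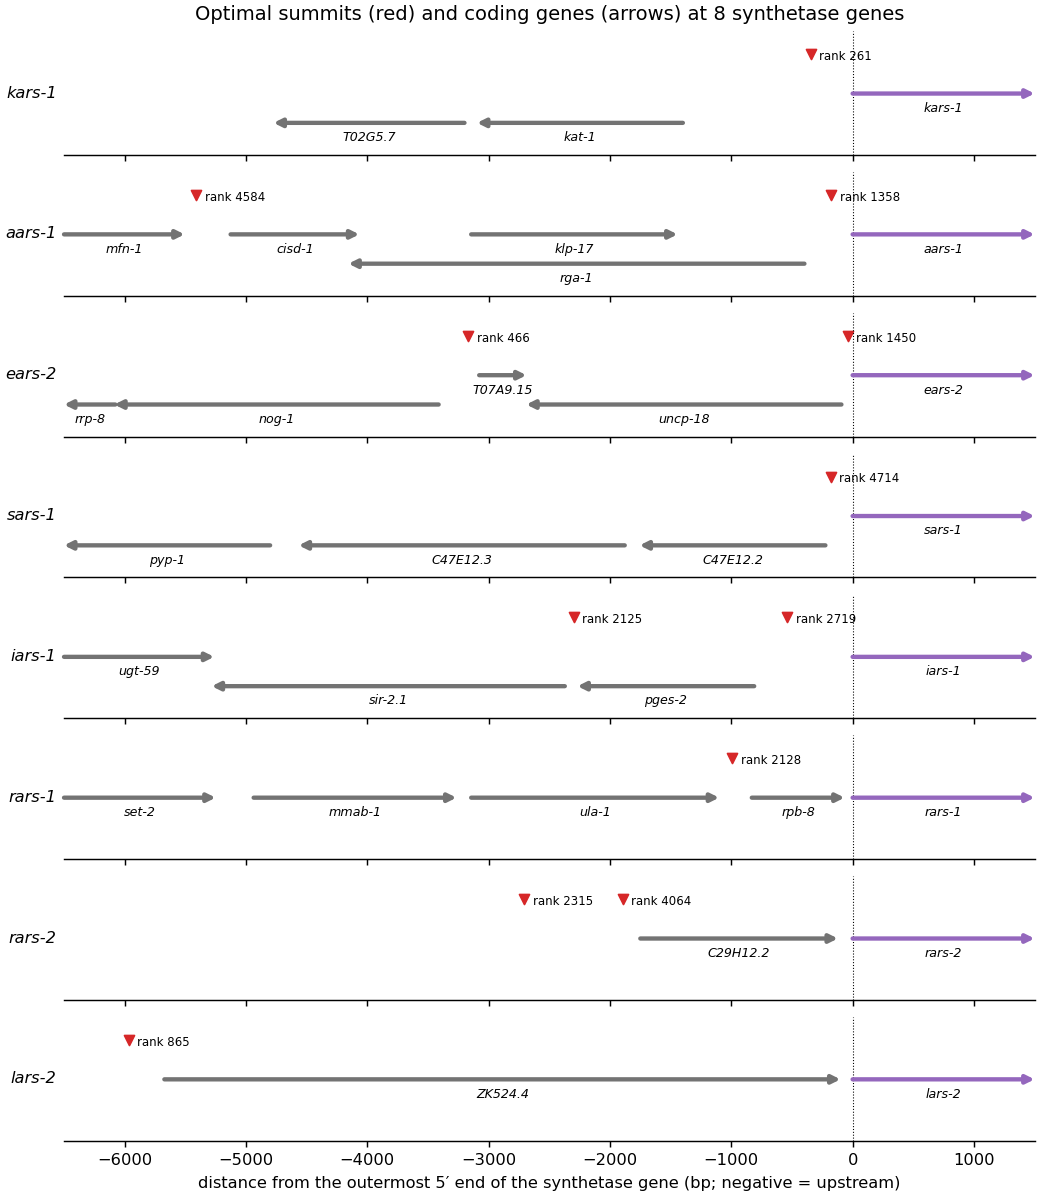
Coding genes (arrows, pointing 5′ to 3′ and ending at the edge where they run past it) and optimal summits (red, with their rank) around 8 synthetase genes (purple), by distance in bp from the outermost 5′ end of the synthetase gene, negative upstream. At kars-1, aars-1, ears-2 and sars-1 a summit lies within 500 bp, at iars-1 one lies 540 bp upstream, and at rars-1, rars-2 and lars-2 the nearest lies before the preceding gene.

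The other 7 genes without a peak were ears-1, fars-1, fars-2, iars-1, pars-1, qars-1, which charges glutamine tRNA, and wars-1. The nearest optimal summit was 896 bp upstream of fars-1, at rank 951 and 146 bp upstream of rbm-5, and 3170 bp upstream of ears-1. In the pooled list of 30000 regions, which includes background, 5 of the 15 genes without a peak had some region within 500 bp, at ranks of 15793 (gars-1), 17052 (wars-1), 18877 (nars-2), 20489 (qars-1) and 29767 (fars-2). Of all coding genes without an optimal peak, 23.9% had such a region. Counting genes with and without a peak together, it was 22 of the 32 synthetase genes against 36.9% of all coding genes. No region within 500 bp in the pooled list or in either replicate was found for 8 of the 32 genes: dars-2, ears-1, fars-1, iars-1, lars-2, pars-1, rars-1 and rars-2. The lists hold no read counts, so binding below their limits was not detectable here and is not shown to be absent.

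Peaks lay at all of the listed genes for the delivery of charged tRNA to the ribosome. The list was chosen with earlier results of these data known. From a list of 27 genes chosen for the tRNA charging pathway, 26 matched a symbol of the annotation (trnt-1 did not) and 15 had a peak (57.7%, against 17.0% of all coding genes). All 8 delivery genes, which include genes for exchange factor subunits, had one. Those of eef-1A.2 and eef-1A.1, which encode elongation factor 1 alpha, ranked 11 and 20, and those of eef-1G and eef-1B.1, subunits of its exchange factor, ranked 78 and 449. The related eef-1B.2 ranked 1329. Of the mitochondrial factors, tufm-1 ranked 1302, tufm-2 1614 and tsfm-1 4303. The kars-1 peak, the highest of the synthetases, was thus below 3 of these 8.

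Of 15 genes listed for tRNA processing and modification, 5 had a peak (33.3%, against 17.0% of all coding genes). They were metl-1 (rank 552), whose human relative methylates guanosine in tRNA, mtcu-2 (rank 1497), nsun-5 (rank 1682), nsun-1 (rank 1741) and elpc-1 (rank 2992), a subunit of the Elongator complex that modifies the wobble position. Both nsun-1 and nsun-5 are known in this worm as methyltransferases of ribosomal RNA rather than tRNA. Without them 3 of 13 processing genes (23.1%) and 13 of 24 genes of the whole list (54.2%) had a peak, against the same 17.0%. The processing share was then near that of all coding genes. These counts were added after the values had been seen. The ligase gene rtcb-1 and tut-1 were among the processing genes without a peak. Of 3 genes that sense or respond to uncharged tRNA, gcn-1 (rank 1938) and atf-4 (rank 1752) had a peak and the kinase gene gcn-2 had none. In replicate 1 alone gcn-2 had a summit 224 bp upstream at rank 2236, and it had no region within 500 bp in replicate 2. The shares of delivery, processing and sensing genes were not tested against those of the synthetases.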

How the data were processed

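The deposited data are ChIP-seq peak lists in narrowPeak format for 2 replicates. Per the submitters' listing of files, the authors called a list on each replicate and on the pool of both, all against a control, and thresholded these by IDR into the optimal list. For the aligner, the peak caller and their versions, no name is given in the sources used here. Peak signals are the authors' deposited values and served only for ranking inside a list. Values of −log10 q, as deposited, were 4.07 for every optimal peak and carried no ranking. The optimal list equals the 5692 pooled peaks with the highest signal. No depth is known and no interval was computed.

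Positions are 1-based in ce11. The ce10 lists were not used. Genes came from Ensembl release 115 and products and sequence from RefSeq WBcel235. For each gene the summit nearest to any 5′ end of a protein-coding transcript within 500 bp was taken. Replicate regions were matched within 100 bp. Upstream neighbours could overlap a gene by up to 200 bp. The procedure was tested on simulated summits. No test between samples or genes was made: there is 1 group, and the spread between replicates may be technical.

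All synthetase genes are accounted for. Other genes are named as sharing a summit, as run neighbours or from the pathway list. The members and lists were chosen with earlier results of these data known. Alternatives were other windows, outermost or nearest 5′ ends only, the 2846 highest peaks, and each replicate alone. Python 3.11.15, numpy 2.4.6, pandas 2.3.3 and matplotlib 3.10.9 were used.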

Additional observations from a re-analysis of the deposited data

How the results depend on the processing

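No paired analysis was possible because the 2 replicates form 1 group. The count of synthetase genes with a peak, 17 of 32, fell to 11 within 250 bp (6 of the genes numbered 1) and to 6 among the 2846 highest optimal peaks (5 numbered 1 and 1 numbered 2). Against these, 11.7% and 11.1% of all coding genes had a peak. Within 250 bp the genes lost were aars-2, kars-1, lars-1, mars-1, nars-1 and tars-1, whose summits lie farther out, so the call of the 2 highest peaks rests on the wider window. Within 1000 bp the count was 21, with fars-1, gars-1, iars-1 and rars-1 added (21.6% of all coding genes), and it was 16 with the outermost 5′ end only (16.1%) and 14 with each summit given to its nearest 5′ end (13.8%). A single replicate gave 13 to 17 synthetase genes, 9 to 12 numbered 1, 4 in each case numbered 2, and 15 to 16 of the other pathway genes. The 22 synthetase genes with any pooled region had a median rank of 3894, against 8660 for all such coding genes. The single replicates gave 4093 to 4890. This median is not independent of the count of 17, whose genes are among the 22. The reference of autosomal coding genes and the pathway list without nsun-1 and nsun-5 (13 genes with a peak) were added after the data were seen. With no read counts, the depth behind any peak is unknown.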
